A study of Mus musculus with 12 samples.

Results

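Collagen genes were taken as the genes whose symbol reads Col, a type number, the letter a and a chain number, and 43 of the 23042 genes listed in each table met this rule. They comprised 11 genes of fibrillar collagens, 6 of the basement membrane collagen type IV and 26 of other types. Transcript levels were compared between WT mice and MED13cTg mice, which carry a transgene that raises the Mediator subunit MED13 in the heart, in 2 tissues: the heart ventricles and the epididymal fat pad (EWAT). All 4 groups held 3 male C57BL/6 littermates, labelled as 6 weeks old, kept on normal chow and sampled in the fed state in late afternoon, with 1 library per mouse and tissue. The WT groups carried no transgene, and the promoter that drives the transgene is not named in the sources used here. Values are in FPKM, fragments counted for a gene after division by transcript length and by the mapped total of the library, so that levels of different collagen genes can be set side by side. SE stands for standard error throughout.

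Collagens are proteins of the extracellular matrix in which 3 chains wind into a triple helix. Fibrillar collagens assemble into the banded fibrils that give tissue its tensile strength, and in heart and fat they are made mainly by fibroblasts. Type IV collagen forms the sheet-like network of the basement membrane, the thin matrix layer that surrounds heart muscle cells, fat cells and small vessels and underlies epithelia. Among the other types, type VI builds beaded filaments around cells and is abundant in fat, types XV and XVIII lie at the edge of basement membranes, the FACIT collagens sit on the surface of fibrils, and types VII and XVII anchor epithelia to the matrix beneath them.

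Med13 stood at 13.1, 10.6 and 11.5 FPKM in WT ventricles against 263, 181 and 204.5 FPKM in MED13cTg ventricles, as their labels state (log2 fold change of 4.08 with SE 0.17, adjusted p = 0.000281 in limma, adjusted by Benjamini-Hochberg over every gene tested). Rank correlations over the genes tested were 0.944 or more between any pair of ventricle libraries, whereas MED13cTg EWAT replicate 1 reached at most 0.494 with any other EWAT library. All 7 cardiomyocyte markers, such as Myh6, were present in the ventricle libraries. Markers of tissues next to the fat pad were present in the EWAT libraries, and also in the ventricle libraries. The summed level of 16 epididymis markers was 101892, 97611 and 127017 FPKM in WT EWAT against 14877, 296 and 95835 FPKM in MED13cTg EWAT, and that of 7 testis germ cell markers was 236, 233 and 280 FPKM against 16065, 7.30 and 358 FPKM. The epididymis sum was 174, 98.2 and 68.8 FPKM in WT ventricles against 71.1, 148 and 96.5 FPKM in MED13cTg ventricles. The germ cell sum there was 22.3, 18.1 and 10.1 FPKM against 14.6, 27.3 and 18.8 FPKM. MED13cTg EWAT replicates 1 and 2 therefore stood apart from the other 4 EWAT libraries before any collagen gene was considered, and results for EWAT are given with and without them. The number of fragments in a library relative to WT replicate 1, read from values under 0.15 FPKM, was 0.920 to 1.02 in the ventricles and lowest in the same pair of EWAT libraries, at 0.664 and 0.745. The absolute depth is unknown from FPKM.

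The promoters of 4 abundant collagen genes are shown because these genes had the highest levels of all collagen genes in WT ventricles or WT EWAT. Col4a1 and Col4a2, the genes of the paired type IV chains, lie head to head with start sites 21 bases apart and share a short promoter, whereas Col1a2 and Col3a1, which encode fibrillar chains, each have their own. The windows run from 250 bases before the start site to 50 bases from it on, in RefSeq on GRCm38.p6: chr8:11312777-11313076 on the minus strand for Col4a1, chr8:11312555-11312854 on the plus strand for Col4a2, chr6:4505368-4505667 on the plus strand for Col1a2 and chr1:45311288-45311587 on the plus strand for Col3a1. The first pair overlap over 78 bases. The start sites are 11312826 for Col4a1 on the minus strand and 11312805 for Col4a2 on the plus strand. In this annotation the first bases of these genes therefore overlap, and each start site lies inside the other gene. Capitals mark matches, on either strand, of CCAAT (the box bound by the factor NF-Y), of GGGCGG (the core of the box bound by Sp1) and of TATAAA (the TATA box), none of which overlapped another.
Col4a1: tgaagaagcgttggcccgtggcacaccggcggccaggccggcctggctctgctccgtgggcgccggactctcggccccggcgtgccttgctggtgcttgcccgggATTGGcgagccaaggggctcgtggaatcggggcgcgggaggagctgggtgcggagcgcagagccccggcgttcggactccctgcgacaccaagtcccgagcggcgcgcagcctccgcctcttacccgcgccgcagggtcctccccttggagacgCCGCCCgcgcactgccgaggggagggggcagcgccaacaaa
Col4a2: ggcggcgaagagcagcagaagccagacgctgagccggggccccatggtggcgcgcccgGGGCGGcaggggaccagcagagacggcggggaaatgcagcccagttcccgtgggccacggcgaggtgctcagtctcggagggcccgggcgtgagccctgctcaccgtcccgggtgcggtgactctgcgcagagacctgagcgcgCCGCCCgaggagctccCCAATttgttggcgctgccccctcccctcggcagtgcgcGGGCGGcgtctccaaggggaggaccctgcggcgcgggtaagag
Col1a2: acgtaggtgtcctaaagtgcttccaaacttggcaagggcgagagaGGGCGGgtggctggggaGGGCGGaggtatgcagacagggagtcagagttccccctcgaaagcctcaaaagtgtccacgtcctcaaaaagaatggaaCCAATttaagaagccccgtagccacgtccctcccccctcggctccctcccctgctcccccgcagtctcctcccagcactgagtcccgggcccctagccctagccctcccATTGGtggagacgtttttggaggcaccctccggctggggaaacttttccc
Col3a1: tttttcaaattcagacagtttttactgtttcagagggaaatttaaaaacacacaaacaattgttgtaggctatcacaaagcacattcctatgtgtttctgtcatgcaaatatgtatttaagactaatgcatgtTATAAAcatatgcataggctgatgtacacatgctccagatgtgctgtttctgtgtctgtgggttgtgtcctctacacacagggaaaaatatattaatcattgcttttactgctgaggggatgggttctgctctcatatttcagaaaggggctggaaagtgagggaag

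CCAAT occurred at least 1 time in the Col4a1, Col4a2 and Col1a2 windows and not in that of Col3a1. GGGCGG was found in the same windows, while among these 4 TATAAA was found in the Col3a1 window alone. Windows were held for 35 of the 43 collagen genes, 38 windows in all. GGGCGG was in 23 of them (60.5%), against 35.7% of all 32851 mouse promoter windows of this length. CCAAT was in 13 (34.2%, against 37.4% of all windows) and TATAAA in 5 (13.2%, against 13.6%). These are matches of letters only, on a newer genome build than the tables use.

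In WT ventricles the type IV chains led. Col4a1 (mm9 chr8:11198422-11312826) had a mean of 124 ± 19.6 FPKM (SD, n = 3 mice), Col4a2 (mm9 chr8:11312828-11449287) 115 ± 24.5 FPKM and Col3a1 (mm9 chr1:45368382-45406551), the type III chain of fine fibrils, 114 ± 26.5 FPKM. These 3 means differed by less than their spread. Next came Col1a2 (mm9 chr6:4455696-4491543) at 65.6 ± 17.1 FPKM, Col6a2 at 61.6 ± 21.7 FPKM and Col1a1 (mm9 chr11:94797583-94813170) at 43.5 ± 14.7 FPKM, again with overlapping spreads. In WT EWAT the fibrillar chains led instead. Col1a2 had a mean of 267 ± 57.7 FPKM, Col3a1 240 ± 93.7 FPKM, Col6a2 167 ± 54.0 FPKM and Col1a1 157 ± 24 FPKM, none separated from its neighbour in this order by more than its spread, and Col4a2 and Col4a1 followed at 116 ± 36.8 and 86.9 ± 33.5 FPKM.

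The tables of the 2 tissues were estimated separately, so levels are set side by side without a test. Of 34 collagen genes whose WT mean reached 1 FPKM in either tissue, 22 were higher in every WT EWAT library than in every WT ventricle library, 5 were lower and 7 overlapped. The share of all genes that separated the tissues in this way was not computed, so these counts are not read as a trait of collagen genes. Fibrillar genes made up 6 of the 22, with Col1a1, Col1a2 and Col3a1 among them, and Col5a3, a type V chain, was at 72.3 ± 39.6 FPKM in WT EWAT against 8.35 ± 3.65 FPKM in WT ventricles. Several genes were near absence in the ventricles but not in EWAT. Col6a4, a long type VI chain, was at 0.0797, 0.0439 and 0 FPKM in WT ventricles against 33.7, 29.0 and 34.2 FPKM in WT EWAT. Col7a1, of the anchoring fibrils of epithelia, had means of 0.694 ± 0.218 and 14.2 ± 1.23 FPKM, and Col17a1, of the hemidesmosomes of epithelia, 0.154 ± 0.155 and 8.69 ± 0.966 FPKM. The entry of Col7a1 is joined with that of the microRNA gene Mir711, so its value is uncertain. The WT EWAT libraries also held 97611 to 127017 FPKM of epididymis markers in sum. In MED13cTg EWAT replicate 2, where that sum was 296 FPKM, Col6a4, Col7a1 and Col17a1 were at 0.613, 0.997 and 0.177 FPKM, and the part of epididymis in the tissue difference was not tested. The 5 genes higher in the ventricles were Col4a4, Col4a5, Col6a6, Col8a1 and Col11a2. Col8a1, a short chain collagen of vessel walls, differed most, with means of 9.96 ± 1.16 FPKM in WT ventricles and 1.55 ± 0.365 FPKM in WT EWAT. The 7 that overlapped included both Col4a1 and Col4a2.

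**Figure D1:**
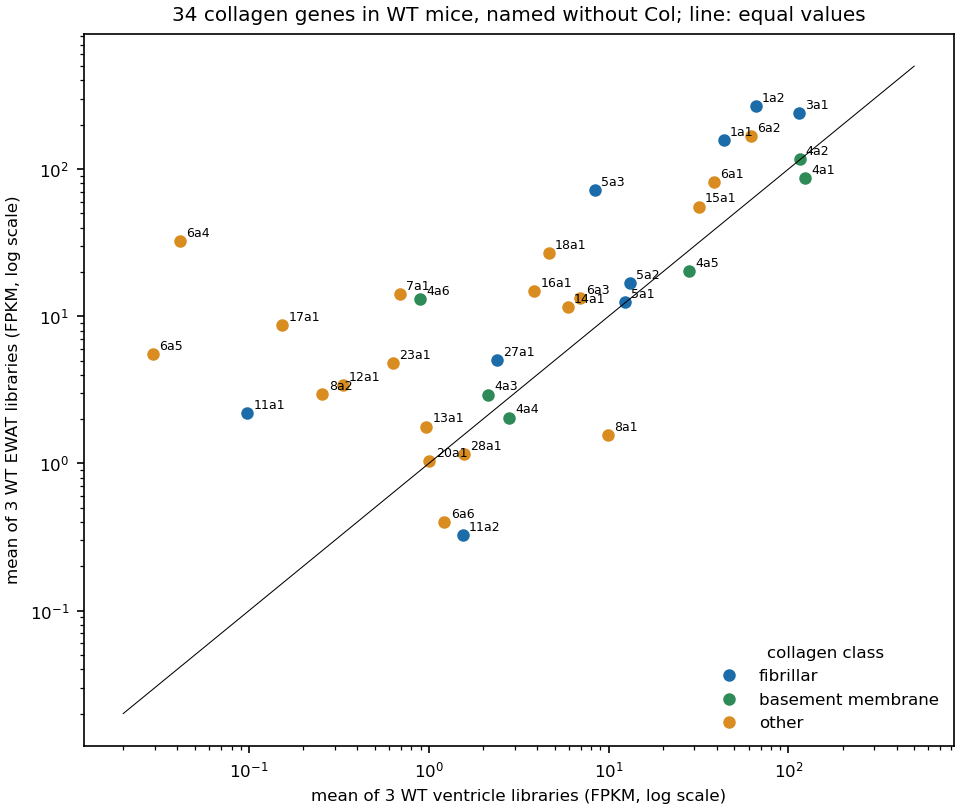
Mean FPKM of 34 collagen genes in WT EWAT (vertical) against WT ventricles (horizontal), both on log scales and each over 3 libraries, with points coloured by class, labelled without the prefix Col, and a line at equal values. Most points lie above the line; Col6a4, Col6a5 and Col17a1 lie farthest above it and Col8a1 farthest below.

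To ask whether cardiac MED13 altered collagen expression in the heart itself, WT and MED13cTg ventricles were compared with limma. It was run on log2(FPKM + 1) for 12589 genes averaging 1 FPKM or more across the libraries of the tissue, a scale that understates differences of weakly expressed genes. No collagen gene passed the threshold of 0.05 on the adjusted p. Of the 43, 25 passed the filter and were tested: 8 fibrillar, 6 of type IV and 11 others. Among them 0 were called in either direction, against 7 of all genes tested (0.0556%), and 0 had an unadjusted p under 0.05, against 1.69% of all genes with higher and 3.03% with lower levels in MED13cTg ventricles. Their adjusted p lay between 0.966 and 0.999. The other 18 had means of 0.0126 to 0.875 FPKM over the 6 libraries and were not tested.

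Of the type I chains, which form the main fibril of heart and fat as 2 α1 chains and 1 α2 chain, Col1a1 stood at 59.8, 39.8 and 31.0 FPKM in WT ventricles against 36.5, 68.2 and 40.2 FPKM in MED13cTg ventricles (log2 fold change of 0.14 with SE 0.31, adjusted p = 0.971). Its partner Col1a2 stood at 84.6, 60.7 and 51.4 FPKM against 53.6, 89.5 and 55.9 FPKM (log2 fold change of 0.0082 with SE 0.26, adjusted p = 0.999). Col3a1 stood at 142, 111 and 89.2 FPKM against 118, 182 and 107 FPKM (log2 fold change of 0.23 with SE 0.25, adjusted p = 0.966). For all 3 genes MED13cTg replicate 2 was highest and WT replicate 3 lowest, and the genotypes overlapped.

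For the type IV chains the spread was the same in kind. Col4a1 was at 133, 138 and 102 FPKM in WT mice against 117, 169 and 123 FPKM in MED13cTg ventricles (log2 fold change of 0.13 with SE 0.19, adjusted p = 0.966). Col4a2 was at 139, 117 and 90.1 FPKM against 109, 158 and 109 FPKM (log2 fold change of 0.12 with SE 0.22, adjusted p = 0.971). Both again peaked in MED13cTg replicate 2. Col4a5 (mm9 chrX:137909961-138123778), a type IV chain of a second network, was at 31.2, 25.7 and 27.4 FPKM against 24.5, 27.2 and 22.3 FPKM, with overlapping groups (log2 fold change of -0.18 with SE 0.12, adjusted p = 0.966). Its neighbour Col4a6 and the linked genes Col4a3 and Col4a4 had means of 3 FPKM or less, and their log2 fold changes lay between -0.07 and 0.18.

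Among the other types, Col6a1 was at 41.5, 40.8 and 32.5 FPKM in WT mice against 31.7, 51.7 and 40.9 FPKM in MED13cTg ventricles (log2 fold change of 0.09 with SE 0.20, adjusted p = 0.971). Its partner Col6a2 was at 81.5, 64.7 and 38.5 FPKM against 49.8, 84.8 and 52.7 FPKM (log2 fold change of 0.04 with SE 0.32, adjusted p = 0.991). Neither chain of type VI separated the genotypes. Col15a1, a basement membrane zone collagen, was at 48.5, 25.2 and 21.4 FPKM against 36.4, 67.6 and 29.1 FPKM, the highest fitted value of any collagen gene tested in this tissue (log2 fold change of 0.47 with SE 0.39, adjusted p = 0.966). Even so, MED13cTg replicates 1 and 3 lay below WT replicate 1.

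Complete separation of the genotypes was rare, and counts among 25 genes are too small to be told from the shares of all genes tested. Of the 25 collagen genes tested in the ventricles, 0 had every MED13cTg library above every WT library, against 3.46% of all genes tested, and 1 had every one below, against 5.85%. That gene was Col11a2, a fibrillar chain best known from cartilage, at 1.88, 1.54 and 1.22 FPKM in WT mice against 0.972, 1.09 and 1.12 FPKM in MED13cTg ventricles (log2 fold change of -0.30 with SE 0.15, unadjusted p = 0.0819, adjusted p = 0.966 in limma). It was named after its values were seen, as were the 2 separated genes among the 18 that were not tested. Col6a5 was at 0.0187 to 0.0370 FPKM in WT and 0.0425 to 0.0684 FPKM in MED13cTg ventricles, and Col22a1 at 0.282 to 0.343 FPKM against 0.124 to 0.244 FPKM. Values this low rest on few fragments, and the share of all untested genes that separated the genotypes was not computed.

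**Figure D2:**
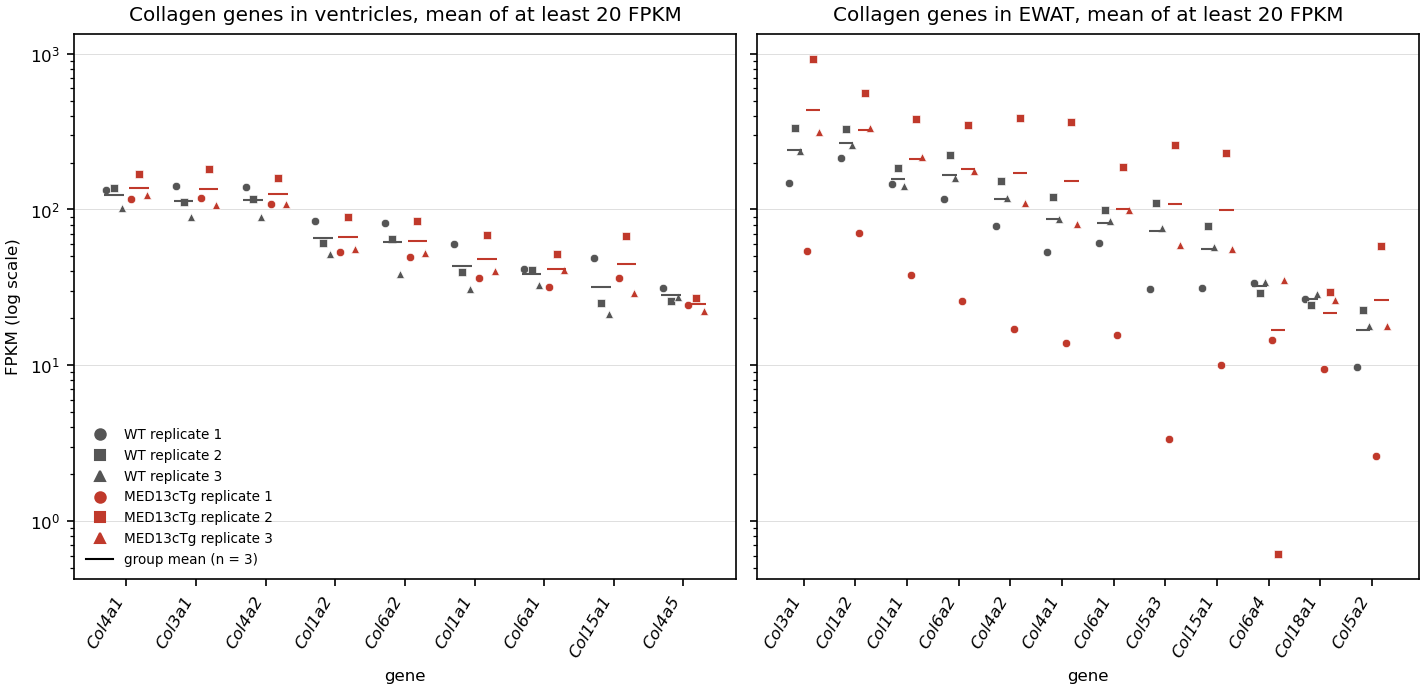
FPKM (log scale) of every collagen gene averaging 20 FPKM or more across the 6 libraries of ventricles (left, 9 genes) and EWAT (right, 12 genes), with 1 point per library, its shape the replicate number and its colour the genotype, and a line at each mean of 3. MED13cTg replicate 2 is the highest library for 8 of the 9 genes in the ventricles, and in EWAT MED13cTg replicate 1 is the lowest library for 11 of the 12.

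The fitted values of the tested collagen genes leaned one way in the ventricles, with 21 of 25 above 0 and a median log2 fold change of 0.092, against -0.014 for all genes tested. The median was 0.14 for the 8 fibrillar, 0.068 for the 6 type IV and 0.086 for the 11 other genes, and the median standard error of a single gene was 0.19. MED13cTg replicate 2 was the highest of the 6 libraries for 18 of the 25 genes, with a median of 1.36 times the WT mean, while replicates 1 and 3 had medians of 0.944 and 0.981 times. WT replicate 3 was the lowest for 14 of the 25. The shares of all genes tested with these signs and orders were not computed, so the counts are not read as a trait of collagen genes. Without MED13cTg replicate 2 the 3 class medians were -0.04, -0.061 and -0.0068, and without WT replicate 3 they were -0.012, -0.03 and -0.018, so that the sign turned in each class. Col4a6, with a WT mean of 0.895 FPKM, passed the filter only through its 2.01 FPKM in MED13cTg replicate 2. This gene is counted among those above 0 and those highest in that library, and 24 genes were tested without that library. With any 1 of the other 4 libraries left out the class medians stayed above 0, at 0.10 to 0.32, 0.070 to 0.12 and 0.11 to 0.23.

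Summed over the 43 genes, collagen transcripts amounted to 857, 706 and 554 FPKM in WT ventricles against 656, 1005 and 664 FPKM in MED13cTg ventricles. The makeup moved little between these libraries, since fibrillar genes took 35.2% to 38.8% of the sum, type IV genes 35.9% to 40.6% and the others 22.8% to 25.3%. Markers of the cells that make collagen varied between the same libraries. The summed level of 9 fibroblast markers was 3272, 2378 and 2321 FPKM in WT mice against 1655, 3592 and 2246 FPKM in MED13cTg ventricles, and that of 8 endothelial markers was 873, 707 and 620 FPKM against 724, 945 and 716 FPKM, with no marker of either list at 0. Both sums were highest in MED13cTg replicate 2. The fibroblast sum was mostly Gsn, which gave 75.5% of it in that library, and without Gsn it was 843, 732 and 727 FPKM in WT mice against 632, 881 and 708 FPKM. The fibroblast list did not move as one, since 5 of its 9 markers were highest in replicate 2 and 3 were lowest in replicate 1. Of the endothelial markers 6 of 8 were highest in replicate 2. The sum of 8 mural cell markers was 438, 452 and 474 FPKM in WT mice against 436, 422 and 452 FPKM in MED13cTg ventricles. It was lowest in replicate 2, although 4 of the 8 markers were highest there. The part of these lists in the collagen levels was not tested. In RNA from whole tissue, fewer cells of a type and less RNA per cell cannot be told apart.

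**Figure D3:**
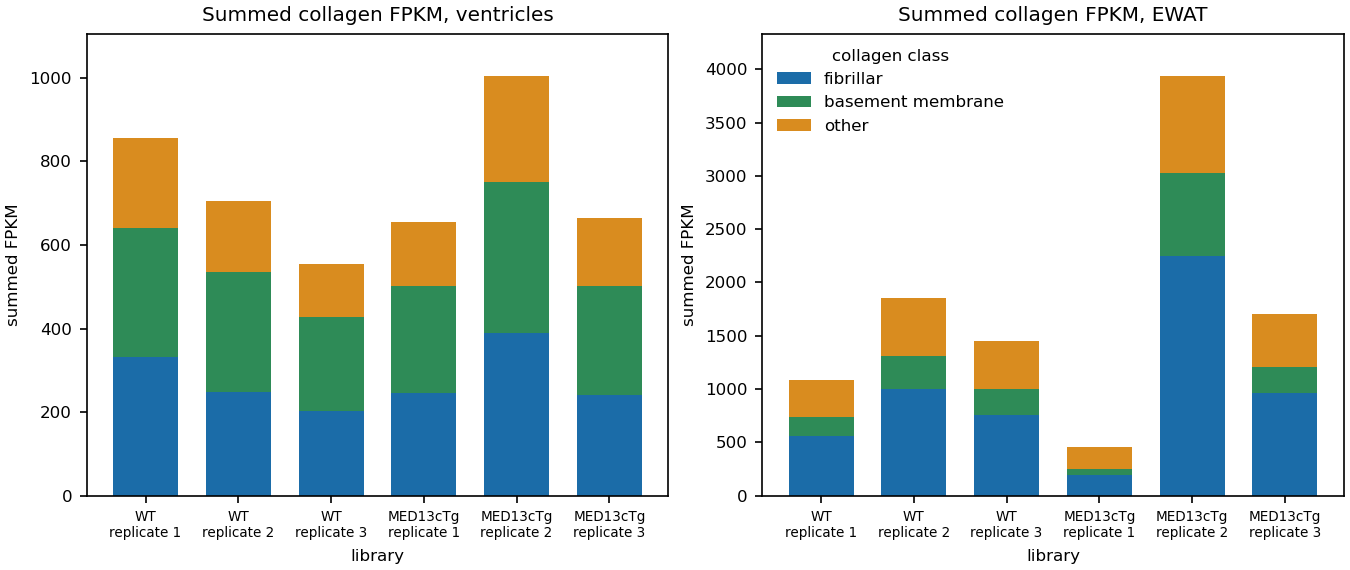
Summed FPKM of the 43 collagen genes in each library of ventricles (left) and EWAT (right), stacked by class from 0. MED13cTg replicate 2 has the tallest bar in both tissues, at 1005 and 3940 FPKM, and the EWAT bars of the MED13cTg mice span 455 to 3940 FPKM.

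In EWAT the comparison asks whether a transgene expressed in the heart went with a different matrix in a distant tissue. The 3 MED13cTg mice did not share a direction. Summed collagen transcripts were at 1083, 1855 and 1455 FPKM in WT EWAT, and at 455, 3940 and 1708 FPKM in MED13cTg EWAT, so that replicate 1 lay below and replicate 2 above every WT library. Of the 43 genes 36 passed the filter, 9 fibrillar, 6 of type IV and 21 others, and the 7 that did not had means of 0.0456 to 0.489 FPKM. Among the 36, 0 were called by limma, against 2 of 14967 genes tested (0.0134%), and 0 had an unadjusted p under 0.05, against 0.14% of all genes with higher and 1.11% with lower levels in MED13cTg EWAT. With the replicate number as a block, limma called 0 of the 36, of which 0 had an unadjusted p under 0.05, and 0 of all genes, of which 296 did. Not one of the 43 had every MED13cTg library above every WT library, against 4.88% of all genes tested, or every one below, against 7.8%.

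The adjusted p of the 36 genes lay between 0.738 and 0.996, and their standard errors between 0.39 and 1.52 with a median of 0.73, against 0.11 to 0.39 with a median of 0.19 in the ventricles. The median log2 fold change was -0.085 for fibrillar, -0.15 for type IV and -0.068 for other genes, against 0.012 for all genes tested, and 13 of the 36 values were above 0. The ratio of mean FPKM pointed the other way and was above 1 for 25 of the 36, because it weighs single high values more than a log scale does. Without MED13cTg replicate 1 the class medians were 0.92, 0.20 and 0.057, and without replicate 2 they were -0.76, -0.34 and -0.32. With both left out, MED13cTg replicate 3 alone against the WT mice gave 0.33, 0.47 and 0.13, with 0 of 32 collagen genes called by limma. That fit takes its spread from the WT mice and assumes that the lone MED13cTg library varies like them. In it 5 of the 32 collagen genes, 15.6%, had an unadjusted p under 0.05, against 266 of 13643 genes in all, 1.95%, and 19 of all genes were called. Without WT replicate 2 the fibrillar median was 0.16.

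**Figure D4:**
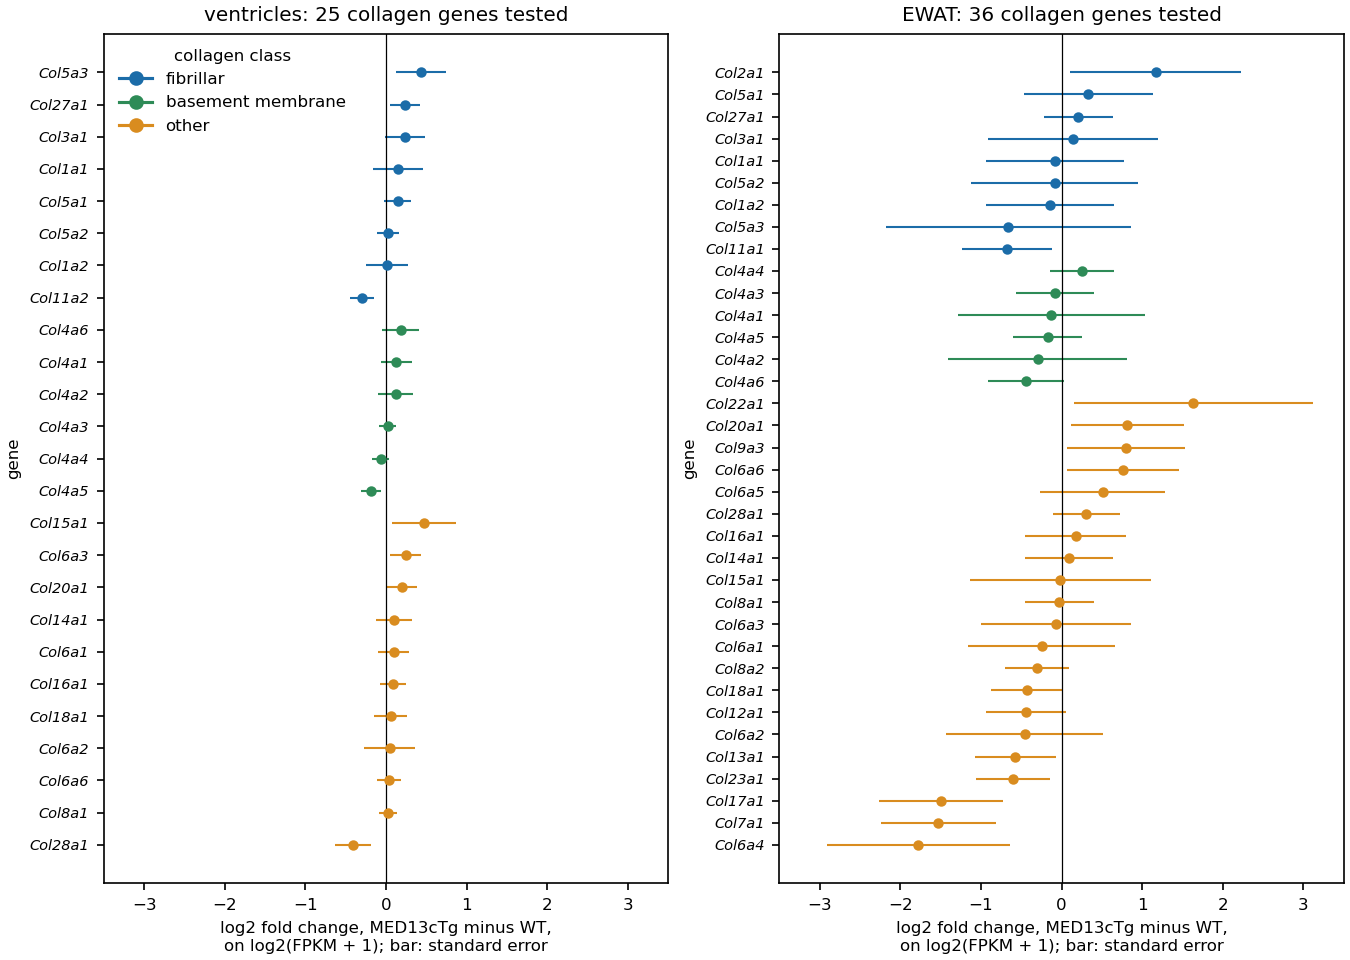
Log2 fold change (MED13cTg minus WT, on log2(FPKM + 1)) with its standard error for the 25 collagen genes tested in ventricles (left) and the 36 tested in EWAT (right), coloured by class and drawn on the same scale. Values in the ventricles stay within -0.41 to 0.47 and those in EWAT spread from -1.78 to 1.63 with wider bars.

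The fibrillar genes show what lay behind these medians. Col1a1 was at 145, 185 and 142 FPKM in WT EWAT against 37.9, 382 and 216 FPKM in MED13cTg EWAT (log2 fold change of -0.08 with SE 0.86, adjusted p = 0.973). Col1a2 was at 213, 328 and 260 FPKM against 70.7, 562 and 335 FPKM (log2 fold change of -0.14 with SE 0.79, adjusted p = 0.950). Col3a1 was at 148, 335 and 238 FPKM against 54.0, 931 and 313 FPKM (log2 fold change of 0.15 with SE 1.05, adjusted p = 0.962). In each case replicate 1 lay below and replicate 2 above all 3 WT libraries. Type V chains regulate the diameter of type I fibrils. Col5a2 was at 9.80, 22.8 and 17.8 FPKM against 2.61, 58.4 and 17.8 FPKM (log2 fold change of -0.09 with SE 1.03, adjusted p = 0.976). Col5a3 was at 30.8, 110 and 76.4 FPKM against 3.36, 261 and 59.3 FPKM (log2 fold change of -0.66 with SE 1.52, adjusted p = 0.875).

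The pair of main type IV chains followed the same order. Col4a1 was at 53.2, 120 and 87.2 FPKM in WT EWAT against 13.9, 364 and 80.6 FPKM in MED13cTg EWAT (log2 fold change of -0.13 with SE 1.16, adjusted p = 0.968), and Col4a2 at 78.4, 152 and 118 FPKM against 17.2, 387 and 110 FPKM (log2 fold change of -0.30 with SE 1.11, adjusted p = 0.927). In the 4 remaining type IV genes replicate 2 stayed at 0.30 to 1.09 times the WT mean. Col4a5 was at 19.4, 20.9 and 20.2 FPKM against 8.94, 22 and 27.9 FPKM. Col4a3, a chain of the basement membranes of certain epithelia, was at 3.15, 2.76 and 2.89 FPKM against 3.75, 0.879 and 4.78 FPKM, lowest in replicate 2 and not in replicate 1.

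Type VI, the main pericellular collagen of fat, was itself divided. Col6a1 was at 60.7, 99.9 and 84.1 FPKM in WT mice against 15.6, 187 and 99.6 FPKM in MED13cTg EWAT (log2 fold change of -0.25 with SE 0.91, adjusted p = 0.924). Col6a2 was at 117, 224 and 160 FPKM against 25.8, 347 and 177 FPKM (log2 fold change of -0.46 with SE 0.97, adjusted p = 0.865). These 2 chains varied as the fibrillar genes did. Col6a4 was at 33.7, 29.0 and 34.2 FPKM against 14.5, 0.613 and 35.3 FPKM, low in both replicates 1 and 2 and near the WT range in replicate 3 (log2 fold change of -1.78 with SE 1.13, adjusted p = 0.738). Of the multiplexins, Col15a1 was at 31.5, 78.0 and 57.3 FPKM against 9.99, 231 and 55.6 FPKM, with a log2 fold change of -0.02 that was 0.045 under median-of-ratios scaling (standard error 1.12, adjusted p = 0.996). Col18a1, the source of endostatin, was at 26.8, 24.5 and 28.7 FPKM against 9.45, 29.4 and 26.2 FPKM (log2 fold change of -0.43 with SE 0.45, adjusted p = 0.738).

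The 36 genes were sorted by whether MED13cTg replicates 1 and 2 lay more than 2-fold above or below the WT mean, a grouping made after the values were seen and given without a test. In 13 genes replicate 1 was below and replicate 2 above: Col1a1, Col1a2, Col3a1, Col4a1, Col4a2, Col5a1, Col5a2, Col5a3, Col6a1, Col6a2, Col6a3, Col6a5 and Col15a1. They include 6 of the 9 fibrillar genes tested. In 7 genes both replicates were below: Col6a4, Col7a1, Col11a1, Col12a1, Col13a1, Col17a1 and Col23a1. In 6 genes replicate 1 was below and replicate 2 within 2-fold: Col4a5, Col4a6, Col8a1, Col8a2, Col14a1 and Col18a1. Replicate 1 was above the WT mean by more than 2-fold in 6 genes, namely Col2a1, Col9a3, Col16a1, Col20a1, Col22a1 and Col27a1, with replicate 2 below in 3 of them. Col2a1, Col9a3 and Col22a1 had WT means of 0.0926, 0.298 and 0.373 FPKM and passed the filter only through their level in replicate 1. Col6a6, with a WT mean of 0.398 FPKM, passed only through replicate 2. The filter thus set the groups of these genes in part. The last 4 were Col6a6 and Col28a1, above in replicate 2 only, Col4a3, below in replicate 2 only, and Col4a4, within 2-fold in both. MED13cTg replicate 3 was between 0.799 and 1.88 times the WT mean for all 36 genes, with a median of 1.23. How many of all genes tested in EWAT had each pattern, or replicate 3 this near the WT mean, was not computed. These counts are therefore not read as a trait of collagen genes.

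Col7a1 and Col17a1, 2 of the genes low in both replicates, varied little among the WT mice. Col7a1 was at 15.5, 13.1 and 14 FPKM in WT EWAT against 4.08, 0.997 and 13.4 FPKM in MED13cTg EWAT (log2 fold change of -1.53 with SE 0.71, unadjusted p = 0.0783, adjusted p = 0.738 in limma), the smallest unadjusted p of any collagen gene in this tissue. Col17a1 was at 9.21, 7.58 and 9.28 FPKM against 2.45, 0.177 and 8.92 FPKM (log2 fold change of -1.49 with SE 0.77, adjusted p = 0.738). The epididymis marker sum given above was low in the same pair of libraries, at 14877 and 296 FPKM, and near the WT range in replicate 3, at 95835 FPKM. Its part in these levels was not tested.

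Of the collagen genes high in replicate 1, Col22a1 and Col2a1 were close to absent elsewhere and Col16a1 was not. Col22a1, a FACIT collagen of tissue junctions, was at 0.540, 0.322 and 0.259 FPKM in WT EWAT against 45.8, 0.0418 and 0.567 FPKM in MED13cTg EWAT. Col2a1, the main chain of cartilage fibrils, was at 0.185, 0.0574 and 0.0357 FPKM against 11.9, 0.0232 and 0.115 FPKM. Col16a1 was at 13.5, 14.4 and 16.3 FPKM against 42.2, 6.62 and 15.9 FPKM. FACIT collagens, among them Col22a1, Col16a1 and Col20a1 (9.36 FPKM in replicate 1), made up 24.5% of summed collagen FPKM in replicate 1, against 0.785% to 2.56% in the other 5 EWAT libraries. The testis germ cell marker sum was 16065 FPKM in replicate 1 and 7.30 to 358 FPKM in those 5, and its part was not tested. With 2 of 3 MED13cTg libraries near the WT level, the log2 fold changes of Col22a1 and Col2a1 were 1.63 and 1.17 with standard errors of 1.48 and 1.06.

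For the 13 genes below in replicate 1 and above in replicate 2, markers of fat cells, vessels, macrophages and stroma are given beside them. The sum of 9 adipocyte markers was 13485, 32253 and 22042 FPKM in WT EWAT against 1417, 80067 and 17438 FPKM in MED13cTg EWAT. The sum of 9 fibroblast markers was 3588, 5264 and 5615 FPKM against 530, 14380 and 4003 FPKM, and that of 8 endothelial markers 204, 350 and 264 FPKM against 40.9, 644 and 225 FPKM. The sum of 6 macrophage markers was 26.3, 46.9 and 44.2 FPKM against 19.1, 92.4 and 38.1 FPKM. No marker of these lists was at 0 in every library. All 4 sums were lowest in replicate 1 and highest in replicate 2, as the 13 collagen genes were. Each of the 9 adipocyte and 8 endothelial markers had this order. Of the 6 macrophage markers all were highest in replicate 2 and 4 lowest in replicate 1. The fibroblast sum was mostly Gsn, 92.7% of it in replicate 2, and was 290, 570 and 495 FPKM against 110, 1053 and 490 FPKM without Gsn. Of the 9 fibroblast markers 8 were lowest in replicate 1 and 6 highest in replicate 2. Pdgfra, a receptor that marks fibroblasts, was at 25.2, 23.2 and 33.0 FPKM against 9.44, 11.7 and 31.9 FPKM, and Tcf21, a transcription factor of these cells, at 24, 18.6 and 23.5 FPKM against 11.6, 7.85 and 32.6 FPKM, so both were low in replicates 1 and 2 alike. The sum of 8 mural cell markers was 718, 551 and 700 FPKM in WT EWAT against 177, 340 and 773 FPKM in MED13cTg EWAT. That of 5 mesothelial markers was 149, 142 and 165 FPKM against 46.4, 87.3 and 149 FPKM. Both sums were below every WT library in replicates 1 and 2 alike. The mesothelial sum in WT EWAT was mostly Krt19, at 141, 113 and 151 FPKM. Without Krt19 the mesothelial sum was 7.54, 28.4 and 13.8 FPKM against 29.2, 71.4 and 19.7 FPKM. It was then above every WT library in replicates 1 and 2. In replicate 1 that remainder was mostly Wt1, at 26.6 FPKM, and 3 of the 5 mesothelial markers were below every WT library. In replicate 2, 4 of the 8 mural markers were highest and 4 below every WT library, against 3 and 1 of the 5 mesothelial markers. The part of all these markers in the collagen levels was not tested.

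**Figure D5:**
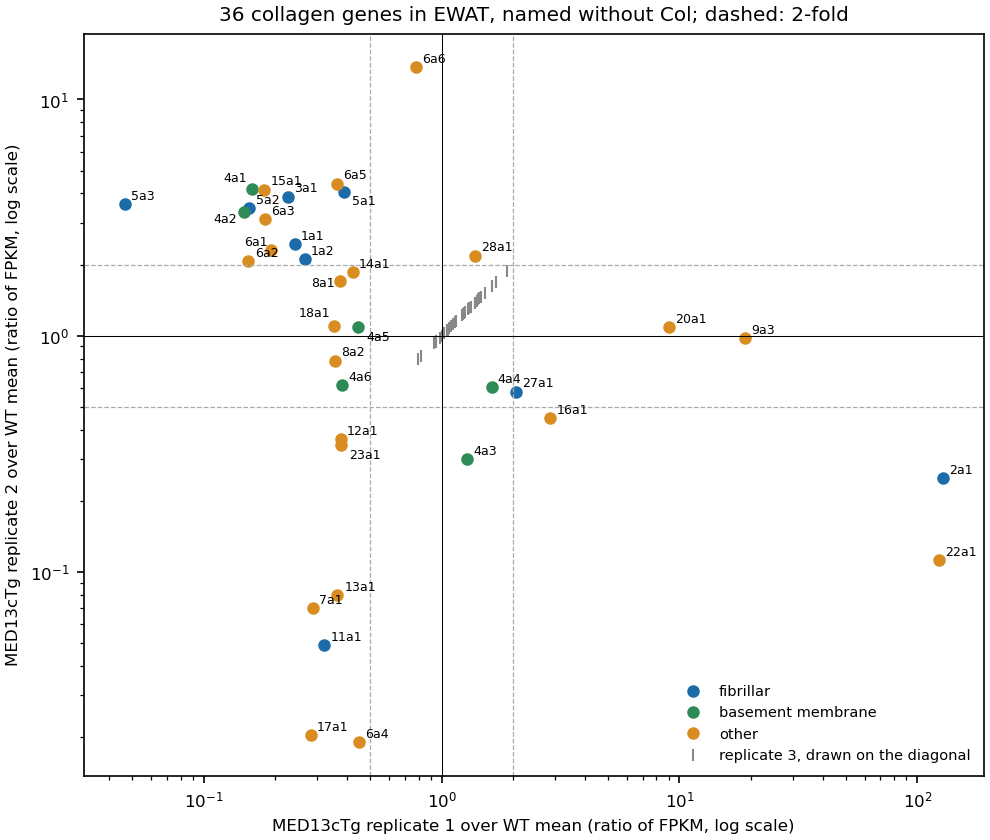
Level of 36 collagen genes in MED13cTg EWAT replicate 1 (horizontal) and replicate 2 (vertical) as a ratio to the WT mean, both on log scales, coloured by class and labelled without the prefix Col, with dashed lines at 2-fold and ticks on the diagonal for replicate 3. The main type IV pair and 6 of the 9 fibrillar genes sit at the upper left, Col17a1 and Col6a4 at the lower left and Col22a1 and Col2a1 at the far right, while replicate 3 stays between 0.799 and 1.88.

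In EWAT all 5 ratios of collagen chains that were read varied less than the levels of their genes. They spanned 1.27-fold for Col1a1 to Col1a2, 1.36-fold for Col6a1 to Col6a2 and up to 2.76-fold for Col5a1 to Col5a2. The ratio of Col1a1 to Col3a1, which are not partner chains, spanned 2.39-fold. The ratio of Col4a1 to Col4a2, whose shared promoter is shown above, ranged from 0.957 to 1.18 over the 6 ventricle libraries and from 0.678 to 0.939 over the 6 EWAT libraries, although the levels of the genes spanned 26.2-fold and 22.5-fold in EWAT. The ratio of Col1a1 to Col1a2, which lie on different chromosomes, ranged from 0.603 to 0.762 in ventricles and 0.536 to 0.681 in EWAT, with the genes spanning 10.1-fold and 7.95-fold there. The ratio of Col5a1 to Col5a2 was less steady in EWAT, at 0.668 to 0.908 in WT and 1.84, 0.863 and 0.797 in MED13cTg mice. The ratio of Col1a1 to Col3a1, chains of separate molecules that join the same fibrils, ranged from 0.310 to 0.421 in ventricles and 0.410 to 0.981 in EWAT. Of 5 ratios in each tissue, 10 in all, 4 of partner chains and 1 of Col1a1 to Col3a1, only Col6a1 to Col6a2 in EWAT separated the genotypes, at 0.519, 0.446 and 0.524 in WT and 0.607, 0.540 and 0.563 in MED13cTg mice. The exact two-sided permutation p was 0.1, the smallest that 3 against 3 libraries allow, and 0.75 after Benjamini-Hochberg adjustment over the 10 ratios.

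Neighbouring collagen genes could be alike or far apart in level. In the mm9 loci of the tables Col4a1 and Col4a2 were 1 base apart and near equal in level, whereas Col4a6 and Col4a5, 1341 bases apart on the X chromosome, had means of 1.05 and 26.4 FPKM over the 6 ventricle libraries and 11.9 and 19.9 FPKM over the 6 EWAT libraries. Col6a6, Col6a5 and Col6a4 lie in a row on chromosome 9 with gaps of 28 and 29.7 kb. In EWAT their means over 6 libraries were 1.25, 8.74 and 24.6 FPKM, and MED13cTg replicate 2 was high for Col6a6 at 5.43 FPKM and for Col6a5 at 24.4 FPKM but low for Col6a4 at 0.613 FPKM.

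The genes that act on collagen were read from lists of enzymes, receptors and partners. No gene of these 7 lists was called by limma in either tissue, and their median log2 fold changes lay between -0.17 and 0.12 in the ventricles and between -0.34 and 0.063 in EWAT. Of 16 tested genes that fold and modify collagen chains, 0 had an unadjusted p under 0.05 in the ventricles. In EWAT 1 of 15 did, P4ha2, a subunit of the prolyl hydroxylase that stabilises the triple helix, at 161, 146 and 178 FPKM in WT mice against 28.2, 24.3 and 145 FPKM in MED13cTg mice (log2 fold change of -1.77 with SE 0.70, adjusted p = 0.738). Over all genes tested in EWAT 1.11% had such a p with a lower level in MED13cTg mice. P4ha2 was low in the same replicates as Col7a1 and Col17a1. Of 11 tested genes that cleave and crosslink collagen, Tgm2, a transglutaminase, was at 118, 137 and 124 FPKM in WT mice against 70.4, 74.2 and 108 FPKM in MED13cTg ventricles (log2 fold change of -0.60 with SE 0.18, unadjusted p = 0.0136, adjusted p = 0.966). Of 12 tested basement membrane partners, Lamb3, a laminin chain, was at 14, 19.4 and 16 FPKM against 8.94, 10.7 and 12.3 FPKM (log2 fold change of -0.58 with SE 0.16, unadjusted p = 0.00888, adjusted p = 0.945). Both were below every WT library in all 3 MED13cTg mice, as 5.85% of all genes tested in the ventricles were. Of 10 tested profibrotic signals, Ctgf, a matricellular protein induced by TGF-β, was at 72.7, 79.8 and 62.9 FPKM against 52.8, 48.5 and 63.7 FPKM, with overlap (log2 fold change of -0.38 with SE 0.15, unadjusted p = 0.0387, adjusted p = 0.966). These were 1 gene of each list, and over all genes tested in the ventricles 3.03% were lower at an unadjusted p under 0.05. In EWAT the last 3 lists held 0 genes with an unadjusted p under 0.05 among 10, 14 and 10 tested. The other 3 lists, of breakdown enzymes with their inhibitors, collagen receptors and proteins that bind fibrils, held 0 genes with an unadjusted p under 0.05 among 10, 6 and 15 tested in the ventricles and 9, 5 and 15 tested in EWAT.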

How the data were processed

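Poly(A) selection and strand are not stated in the labels, which name a TruSeq RNA kit and 1 library per mouse and tissue. Reads were aligned by the authors with TopHat, and Cufflinks gave the FPKM, both at default settings; mm9 is the build in the submitters' processing notes, and versions are not given in the sources used here. FPKM were deposited by the authors in a separate table for each tissue. The authors' group means and folds, and 1 unnamed column in the EWAT table, were not used. Several symbols share an entry 341 times in each of the tables, and such values are uncertain.

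Within a tissue, genes averaging 1 FPKM or more across its 6 libraries entered limma 3.58.1 (R 4.3.3; lmFit, eBayes with trend) as log2(FPKM + 1), each tissue alone, with Benjamini-Hochberg adjustment over all genes tested and a threshold of 0.05. Python 3.11.15 served for ratios and promoter matches (scipy 1.17.1, pandas 2.3.3, numpy 2.4.6) and for plots (matplotlib 3.10.9). Of 200 genes changed by set sizes in simulated data, the fit recovered 145 in each tissue, with 10 false calls in ventricles and 4 in EWAT. All simulated libraries took their means and spread from the WT libraries of the tissue. The MED13cTg EWAT libraries spread more widely, as for Col1a1 with an SD of 172 FPKM against 24.0 FPKM in WT EWAT. The recovery therefore does not carry over to the EWAT comparison. In the ventricles every set size was larger than the fitted value of any collagen gene, in either direction. Recovery of differences as small as those was not measured.

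Collagen genes and lists were chosen with earlier results of these data known. Values in every library are given for genes averaging 20 FPKM or more or an unadjusted p under 0.05, and other genes by range; genes named outside this rule were chosen after their values were seen, among them Col2a1, Col4a3, Col7a1, Col11a2, Col16a1, Col17a1 and Col22a1. Col26a1, listed under its older symbol Emid2, did not meet the rule.

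The labels give the replicate numbers. Deviations from the group means of same-numbered EWAT libraries had correlations across genes of 0.347, 0.304 and 0.144, so the numbers were also fitted as a block. The alternatives were quantile normalization, median-of-ratios scaling, a pseudocount of 0.1, a filter at 5 FPKM or none, array weights, no trend, the replicate block, a covariate for the library cluster in ventricles, and libraries left out.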

Additional observations from a re-analysis of the deposited data

How the results depend on the processing

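No collagen gene was called in either tissue under any of the 15 alternatives, and the smallest adjusted p over them was 0.102 in ventricles (Col28a1, array weights) and 0.139 in EWAT (Col7a1, without MED13cTg replicate 3). With 1 library left out the class medians kept their sign in 12 of 18 cases in ventricles and 14 of 18 in EWAT, and single genes in 41 of 54 and 53 of 72. Under the other alternatives the medians kept it in 26 of 27 and 20 of 27 cases, and single genes in 75 of 81 and 91 of 108. Where a sign turned, the cause was not tested. In ventricles 7 genes of all tested were called; the count was 31 with no filter, 3 with a filter at 5 FPKM, 15 with array weights and 4 with the replicate block, and 4 to 9 with a library left out. In EWAT the count of 2 became 1 with no filter, 0 with array weights, 0 with the replicate block, 19 without both MED13cTg replicates 1 and 2 and 1 to 5 with 1 library left out. Same-numbered ventricle libraries had correlations of 0.085, -0.192 and 0.140, within the range of -0.271 to 0.188 for libraries of different numbers. These values do not tell whether the numbers pair mice there. The replicate block changed no call of a collagen gene.

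The median of type IV genes ranged from -0.061 to 0.12 with a ventricle library left out, and was 0.47 in EWAT without both MED13cTg replicates. The log2 fold changes of single genes turned sign as follows. With each ventricle library left out in turn they ranged from -0.13 to 0.39 for Col1a1, from -0.22 to 0.20 for Col1a2, from -0.034 to 0.23 for Col4a1, from -0.061 to 0.26 for Col4a2, from -0.078 to 0.27 for Col6a1 and from -0.26 to 0.28 for Col6a2. A covariate for the cluster of libraries gave -0.032 for Col1a1, -0.14 for Col1a2 and -0.12 for Col6a2, and fibrillar, type IV and other medians of 0.043, 0.016 and 0.063. Array weights gave -0.032 for Col4a1, -0.085 for Col6a1 and -0.087 for Col6a2.

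With each EWAT library left out in turn the values ranged from -0.77 to 0.88 for Col1a1, from -0.76 to 0.72 for Col1a2, from -0.80 to 1.24 for Col3a1, from -1.26 to 1.05 for Col4a1, from -1.33 to 0.88 for Col4a2, from -1.04 to 0.98 for Col5a2, from -1.999 to 0.95 for Col5a3, from -0.98 to 0.77 for Col6a1, from -1.24 to 0.62 for Col6a2, from -1.09 to 1.11 for Col15a1 and from -0.71 to 0.057 for Col18a1. Array weights gave 0.61 for Col1a1, 0.42 for Col1a2, 0.45 for Col4a1, 0.33 for Col4a2, 0.43 for Col5a2, 0.15 for Col5a3, 0.36 for Col6a1, 0.22 for Col6a2 and 0.51 for Col15a1. Without both MED13cTg replicates the values were 0.47 for Col1a1, 0.35 for Col1a2, 0.15 for Col5a2, 0.31 for Col6a1, 0.13 for Col6a2, 0.13 for Col6a4 and 0.094 for Col15a1. Median-of-ratios scaling gave 0.045 for Col15a1.

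Each genotype had 3 mice per tissue, and in EWAT a single collagen gene had a median standard error of 0.73 on the log2 scale. Neither a difference of that size nor one well above it was detectable. Col7a1, at -1.53 with SE 0.71, had an adjusted p of 0.738 in limma. FPKM carries no counting interval, and values under 1 FPKM rest on few fragments.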

Other observations

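Emid2, the older symbol of the collagen gene Col26a1, was at 0.474, 0.611 and 0.606 FPKM in WT ventricles against 0.735, 0.902 and 1.02 FPKM in MED13cTg ventricles. The genotypes did not overlap, and the gene did not pass the filter. EWAT levels of this gene were 0.379, 0.361 and 0.220 FPKM in WT mice against 3.77, 0.219 and 0.236 FPKM in MED13cTg mice. It was high in MED13cTg replicate 1 alone, as Col22a1 and Col2a1 were.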
